A study of Oryza sativa with 2 samples.

Results

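Ferredoxin-NADP reductase (FNR), plastocyanin and the Rieske iron-sulphur protein are carriers at the end and in the middle of photosynthetic electron transport. They are described here through 5 rice genes, taken by name as 1 probe set each, out of 17905 genes with a probe set on the Affymetrix rice GeneChip. These are the reductase genes LFNR1 (LOC4339874), LOC4334338 and LOC4342399, the plastocyanin gene PETE (LOC4339833) and the Rieske gene petC (LOC4343570). LOC4334338 and LOC4342399 are both named FNR in the gene table, so they are called here by their identifiers. Leaf RNA of untreated greenhouse plants aged 6 weeks was hybridised to 2 arrays, 1 of control 9311, an indica rice variety, and 1 of 9311 carrying the LRK1 transgene, with the name LRK1 060615. LRK1 encodes a leucine-rich repeat receptor-like kinase. Leaves of 10 plants were taken for each genotype. The labels used here do not state the promoter that drives the transgene, nor whether the plants came from 1 or several transformation events.

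In the thylakoid membrane the cytochrome b6-f complex, of which the Rieske protein is a subunit, takes electrons from plastoquinol and hands them to plastocyanin, a soluble copper protein that carries them to photosystem I. Photosystem I reduces ferredoxin, and FNR uses reduced ferredoxin to turn NADP+ into NADPH for the Calvin cycle. Plants hold leaf-type and root-type FNR genes, and the gene table does not state the type of LOC4334338 or LOC4342399. In plastids without photosynthesis the reaction runs the other way, and NADPH made from sugar phosphates reduces ferredoxin for enzymes such as nitrite reductase and glutamate synthase.

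With 1 array per genotype there is no replicate check and no p-value, the number of arrays limits the precision, and every statement compares these arrays. Values are the deposited log2 signals, and every ratio is LRK1 transgenic over control on the log2 scale. Signals below a floor of 5.40, the median log2 signal over both arrays, were taken as too dim. A probe set with both signals at this floor or brighter is called measured, and it counted as higher or lower if it differed at least 2-fold. All 5 members were measured, with the lowest member signal 4.57 above the floor. Of the 5 members 1 was called lower and none higher. Among all 24426 measured probe sets 18.3% were called in either direction, 9.95% lower and 8.36% higher. A share of 1 in 5 members is thus near the background, and the count is not read as a result about the members. The member called lower was LOC4342399. At 1.5-fold LFNR1 would join as higher, making 2 of 5 against 41.3% of probe sets. At 4-fold LOC4342399 alone would pass, the same gene counted again, 1 of 5 against 2.69%.

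**Figure D1:**
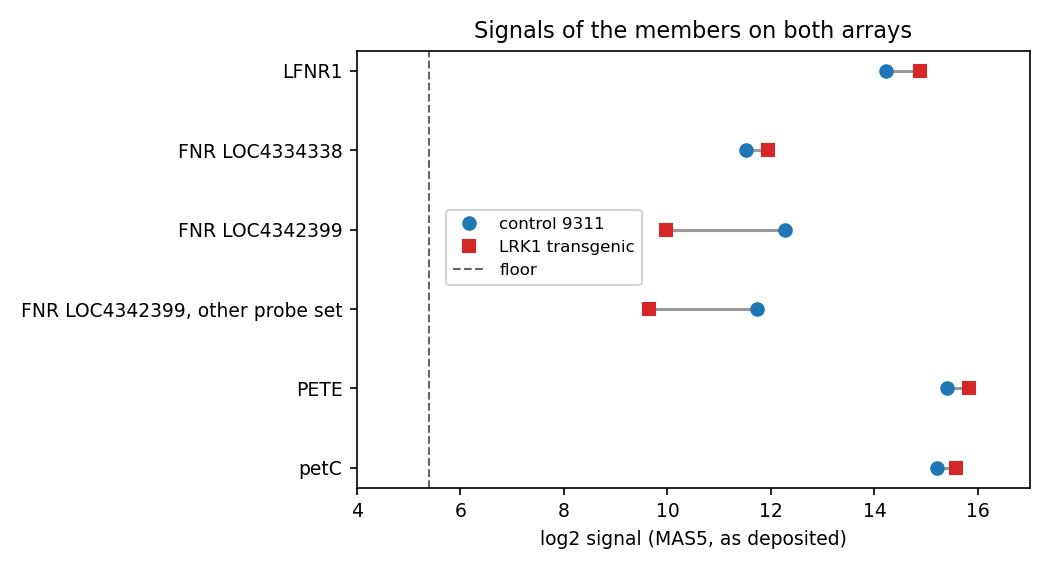
Log2 signals (horizontal axis) of the 5 members and of the other LOC4342399 probe set (rows), with circles for the control 9311 array, squares for the LRK1 transgenic array and a dashed line for the floor of 5.40. Both LOC4342399 probe sets lie lower on the transgenic array, at 9.96 and 9.65, and the other 4 members lie slightly higher there.

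The reductase gene LOC4342399 had a log2 signal of 12.28 in control leaves and 9.96 in transgenic leaves. On the linear scale this is 4971 against 997, a ratio of -2.32, or 4.98-fold lower. The transgenic signal was still 4.57 above the floor, so the ratio is measured on both sides and is no bound. In leaf RNA, fewer cells that express the gene and less of its RNA per cell cannot be told apart.

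The probe set of LOC4342399 that the choice of members used has the suffix _s_at, which marks probes that can bind transcripts of more than 1 gene. The array holds a further probe set for LOC4342399, built on another transcript sequence and with a plain _at suffix. The choice of members did not name it, but earlier results of these data were known then and may have included it. Its log2 signal was 11.74 in control and 9.65 in transgenic leaves, a ratio of -2.09, or 4.26-fold lower. Both probe sets of LOC4342399 were thus lower on the transgenic array, and their ratios differed by 0.23. They read the same RNA on the same arrays, so they repeat the probe and not the plants.

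Agreement of this kind was common but not general on these arrays. There were 1951 genes with 2 or more measured probe sets, and the ratios of their brightest pair differed with an SD of 0.676. In 186 of these genes the brightest probe set was at least 2-fold lower, and in 103 of them (55.4%) the next one was at least 2-fold lower as well. The median gap between the paired ratios of these 186 genes was 0.57, and 51 of them (27.4%) had a gap no larger than that of LOC4342399. LOC4342399 is itself counted among the 186, the 103 and the 51 genes.

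The ratio of LOC4342399 lay toward the low end of the arrays. Of the 24426 probe sets, 334 (1.37%) had a ratio as low or lower. Its mean log2 signal over both arrays was 11.12. Of the 3765 probe sets with a mean from 11 to under 13, 359 (9.54%) were at least 2-fold lower, 45 (1.20%) were as low as LOC4342399, and the 5th percentile of the ratio was -1.41.

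LOC4334338, the other reductase gene named only FNR, had a log2 signal of 11.52 in control and 11.95 in transgenic leaves. The ratio of 0.42 is 1.34-fold and did not pass the 2-fold rule. With a mean signal of 11.74 it falls in the same band of brightness as LOC4342399, where the median ratio was 0.08. LFNR1, which carries the synonym Os-LFNR1 for leaf FNR, had log2 signals of 14.22 in control and 14.88 in transgenic leaves. Its ratio of 0.66, or 1.59-fold, is the highest of the 5 and was also under the 2-fold rule. Among the 1140 probe sets with a mean from 13 to under 15, to which LFNR1 belongs, the median ratio was 0.34 and the 95th percentile 1.03. Only 1 probe set each was annotated to LOC4334338 and LFNR1, so neither ratio has a check by other probes.

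The ratios of the 3 reductase genes thus did not move together. The ratio of LFNR1 exceeded that of LOC4342399 by 2.98 and that of LOC4334338 exceeded it by 2.74, which are changes of 7.90-fold and 6.69-fold relative to LOC4342399. Read with the other LOC4342399 probe set the differences were 2.76 and 2.52. A constant taken off all ratios of an array leaves these differences as they are. They exceed the SD of 0.676 between probe sets of a gene, which covers variation between probes only and not variation between plants, labellings or arrays.

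PETE, the plastocyanin gene, had log2 signals of 15.40 in control and 15.82 in transgenic leaves. Its ratio was 0.42, or 1.34-fold. petC, the Rieske gene, had log2 signals of 15.21 and 15.58, a ratio of 0.38, or 1.30-fold. Neither passed the 2-fold rule, and neither gene had a further probe set annotated to it that could check its ratio. Both genes read near the top of the scale, PETE at 0.38 and 0.42 below the brightest probe set of the control and transgenic array and petC at 0.57 and 0.66 below it. Among the 171 probe sets with a mean of 15 to under 17, which include PETE and petC, none passed the 2-fold rule in either direction, the median ratio was 0.45, and the 5th and 95th percentiles were 0.03 and 0.70. The ratios of PETE and petC were thus close to the middle of the probe sets as bright as they are.

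**Figure D2:**
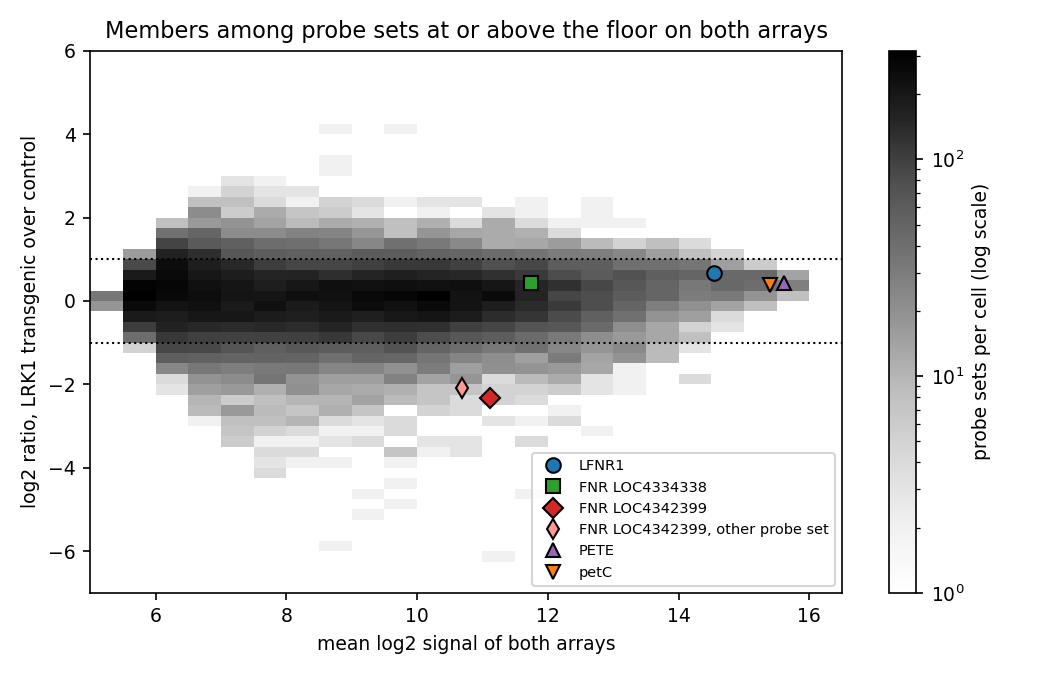
Log2 ratio (vertical axis) against the mean log2 signal of both arrays (horizontal axis) for 24426 probe sets, shaded by their number per cell on a log scale, with the members drawn as symbols and dotted lines at a 2-fold difference. LOC4342399 lies at -2.32 and -2.09 with its probe sets, below most probe sets of the same brightness, and PETE and petC lie inside the narrow range of the brightest.

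How far the small positive ratios stand above 0 depended on the scaling of the arrays. The bacterial spike probe sets, RNA and cRNA controls of bacterial genes added by the laboratory, had a median ratio of 0.34 over 63 probe sets, 57 of them positive, while the median over all 24426 probe sets was 0.08. Measured from the spike median, LFNR1 was at 0.33, LOC4334338 at 0.09, PETE at 0.08 and petC at 0.04. After quantile normalization the ratio of PETE was 0.03 and that of petC turned to -0.03, and after loess PETE turned to -0.04 and petC to -0.06. LFNR1 kept a positive ratio under these scalings, from 0.33 to 0.58, and so did LOC4334338, from 0.09 to 0.41. LOC4342399 stayed at least 2-fold lower under each, with ratios from -2.66 to -2.28 on the first probe set and from -2.43 to -2.06 on the other.

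**Figure D3:**
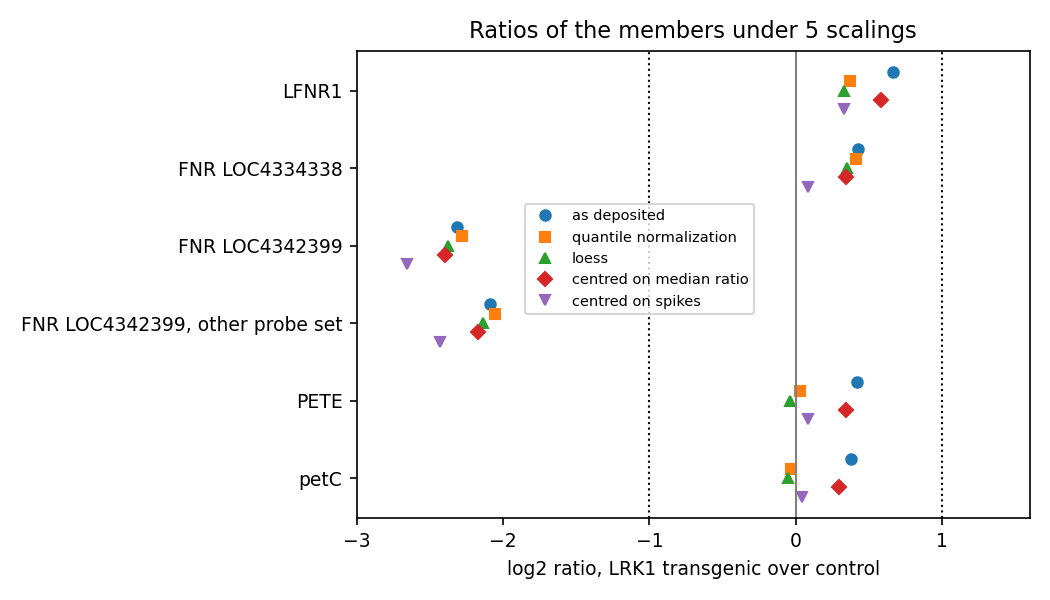
Log2 ratio (horizontal axis) of the 5 members and of the other LOC4342399 probe set (rows) as deposited and under 4 other scalings (symbols), with dotted lines at a 2-fold difference. The LOC4342399 symbols all lie beyond the 2-fold line, and the PETE and petC symbols lie on both sides of 0.

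Genes around these carriers were listed by symbol or synonym, and the lists hold only genes found that way. Of 13 listed genes, all measured, 2 passed the 2-fold rule as higher and none as lower, with a median ratio of 0.58. Over all 13526 genes measured on both arrays, with 1 probe set each, 6.82% were called higher and 11.1% lower, and the median ratio was 0.02. This comparison did not match genes by brightness, and the median ratio of probe sets rose with brightness. It was 0.08 for a mean from 11 to under 13, 0.34 from 13 to under 15 and 0.45 from 15 to under 17.

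The 9 listed genes of the photosystems, antenna, cyclic flow and thioredoxin reduction all had positive ratios as deposited, from 0.38 to 1.03. Over all 13526 measured genes 51.1% had a positive ratio, a share not matched by brightness. Among probe sets with a mean from 15 to under 17 even the 5th percentile of the ratio was positive, at 0.03. NDH-M (LOC4336530), a subunit of the chloroplast NDH complex of cyclic electron flow, went from a log2 signal of 12.47 to 13.49, or 2.03-fold higher. PSAH (LOC4339593), a photosystem I subunit gene, went from 14.44 to 15.47, or 2.04-fold higher. Both calls were lost under quantile normalization, loess and either centring, where NDH-M lay between 1.61-fold and 1.97-fold and PSAH between 1.56-fold and 1.93-fold. Read from their brightest probe sets, none of the other photosystem and antenna genes passed the rule. OsPSAG (LOC4337812) of photosystem I had a ratio of 0.70, while its dimmer probe set, at 6.79 and 7.91, had 1.12 and passed the rule as higher as deposited. The chlorophyll-binding genes CAB2R (LOC4324599), LHCP (LOC4333359) and RCABP69 (LOC4343583) had 0.54, 0.58 and 0.72. Neither listed enzyme gene that draws on reduced ferredoxin or NADPH to reduce thioredoxins passed the rule. FTR-B (LOC4346508), of ferredoxin-thioredoxin reductase, had a ratio of 0.45, and OsNtrC (LOC4344159), an NADPH-thioredoxin reductase gene, had 0.61. With spike centring the 9 ratios were still positive, from 0.04 to 0.69, with a median of 0.28. After quantile normalization they ran from 0.04 to 0.98, with a median of 0.34. After loess they ran from 0.04 to 0.86, with a median of 0.31. The lowest of the 9 as deposited was PSB28 (LOC4326537), of photosystem II, at 0.38, close to petC, PETE and LOC4334338, and the ratio of LOC4342399 was below all of them.

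Of 4 listed genes that use reduced ferredoxin or supply NADPH outside photosynthesis, none passed the 2-fold rule as deposited. Fd-GOGAT (LOC4344164), the ferredoxin-dependent glutamate synthase gene, had a ratio of 0.70, with 0.85 and 0.93 on its other 2 probe sets. HO1 (LOC4341462), a heme oxygenase gene of the pathway to the phytochrome chromophore, had 0.16. G6PGH1 (LOC4339892), a gene of 6-phosphogluconate dehydrogenase, which yields NADPH, went from a log2 signal of 12.96 to 12.01, a ratio of -0.94. It passed the 2-fold rule as lower after loess (-1.06), centring on the median ratio (-1.02) and spike centring (-1.28). The other gene of this enzyme, 6PGDH2 (LOC4350528), had a ratio of 0.14, against -0.98 on its dimmer probe set. The compartments of these 2 dehydrogenases are not annotated in the tables used here.

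**Figure D4:**
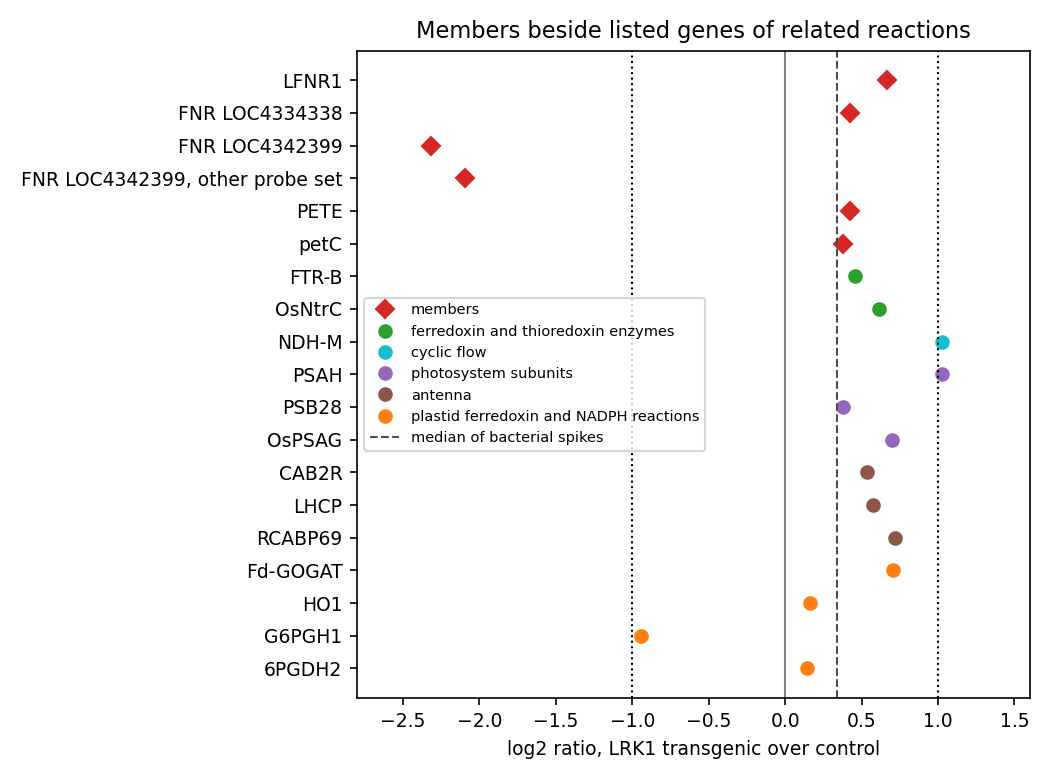
Log2 ratio (horizontal axis) of the members (diamonds) and of 13 listed genes (circles, coloured by list), with dotted lines at a 2-fold difference and a dashed line at the spike median of 0.34. LOC4342399 stands alone beyond the lower 2-fold line, and G6PGH1 at -0.94 is the only listed gene left of 0.

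The genes whose pair of signals was nearest to each member, by Euclidean distance on the log2 scale over the 2 arrays and among 1951 named genes, were found for each member. For LOC4342399 they were BIMK2 (LOC4328223), a mitogen-activated protein kinase gene at 11.95 and 9.96, and the heat shock factor gene HSF10 (LOC4339409) at 12.13 and 9.66, at distances of 0.33 and 0.34. For LFNR1 they were the ubiquitin-conjugating enzyme gene OsUBC5a and CHLH, a magnesium chelatase subunit gene. LOC4334338 had the chlorophyll synthase gene CHLG and the jasmonate receptor gene COI2, both at a distance of 0.10. PETE had the antenna gene LHCP and GOS2. petC had the aquaporin gene TIP1-1, listed as AQP, and the Rubisco small subunit gene OsrbcS. Over 2 arrays such likeness says only that both signals were alike.

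Tissue markers were read for the leaf label. The leaf genes rca, CAB2R and OsrbcS had log2 signals from 15.15 to 16.24 on both arrays, and RBCS-A was below the floor on both. Of 6 root-list genes 3 were measured, and the summed linear signal of the list was 9869 in control and 4450 in transgenic leaves, a shift in the direction of LOC4342399. That sum was carried by a gene matched through the synonym RSS1 (LOC4340386), which the gene table also names the sucrose synthase gene OsSUS2, and which had log2 signals of 13.04 and 11.47. Without the 2 genes matched as RSS1 the sum was 1448 and 1574. The root silicon transporter gene Lsi1 had 10.40 and 10.50, IRT1 had 6.28 and 6.91, and Lsi2 and NAS1 were below the floor on both arrays. Of 7 seed genes 5 were below the floor on both arrays, while the glutelin gene GLUA-2 had 11.11 and 11.60 and Emp1 lay just above the floor, and the summed signal was 2286 and 3226. Of 7 flower genes 3 were below the floor on both arrays, and the summed signal of 2403 and 4684 was carried by LOC4343851, also named MADS18, at 11.01 and 12.11. As deposited that gene passed the 2-fold rule as higher, and the floral gene MADS2 (LOC4325001), at 7.63 and 6.36, passed it as lower. The RNA was labelled with a 3' in vitro transcription kit, a method that primes from the poly-A end. For housekeeping pairs the signal of the 3' probe set was divided by that of its 5' partner. This quotient was larger in control than in transgenic leaves in 5 of 5 pairs. The gap was clearest for GAPDH (3.87 against 2.16) and for an actin pair (9.45 against 6.95). The other actin pair was nearly equal (16.4 against 16.2). The gap was also small for ubiquitin, whose 3' probe set was dimmer than its 5' partner on both arrays (0.831 against 0.782). The part of these marker and 3' to 5' values in the ratio of LOC4342399 was not tested.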

How the data were processed

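Per the submitters' processing notes, the authors made the deposited log2 signals with MAS5, 1 value per probe set and array. Its version, scaling target and lowest allowed signal are not given in these sources; the values themselves, between 0 and 16.24, show the log2 scale. The comparison used 57258 of 57381 probe sets, without 123 array controls. Genes came from the platform annotation and the gene table of assembly ASM3414082v1, in which all 17905 genes were found. No coordinates or sequences are printed.

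A gene other than the members was read from its brightest probe set. Lists matched symbols and synonyms. Lists for chloroplast ATP synthase, other plastocyanin or cytochrome b6-f genes and tethers of FNR had 0 nuclear genes, and plastid-encoded genes were not used here. Named genes were the members, the genes of each list past 2-fold (or its brightest gene where none was), the 2 nearest genes to each member and tissue markers. PSB28, OsPSAG, RCABP69, OsNtrC, HO1, G6PGH1 and 6PGDH2 were named outside this rule after their values were seen. Members and lists were chosen with earlier results of these data known. Calculations used Python 3.11.15, pandas 2.3.3 and statsmodels 0.14.6 (loess fraction 0.3). They were tested on simulated arrays that differed only by a constant and by added changes, without the scatter of the real arrays. The other settings were 4 scalings, a pseudocount of 16, the floor at the 25th or 75th percentile or none, size rules of 1.5-fold and 4-fold, and the median over probe sets of a gene.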

Additional observations from a re-analysis of the deposited data

How the results depend on the processing

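The ratios of the 5 members kept their side of the 2-fold rule under all scalings, the pseudocount and the median over probe sets of a gene. They moved by less than the SD of 0.676 between probe sets of a gene. That SD covers variation between probes only and does not replace the missing replicate spread. PETE turned negative after loess (-0.04), and petC after quantile normalization (-0.03) and loess (-0.06). LOC4342399 ranged from -2.66 to -2.20 under these settings. Its other probe set alone, a setting chosen after seeing the data, had -2.09 as deposited. Under the scalings and the pseudocount that probe set ranged from -2.43 to -2.06. LFNR1 ranged from 0.33 to 0.66. The number of members called was 1 under every setting except the 1.5-fold rule, where it was 2, LFNR1 being the other, against a background of 41.3%. Spike centring lowered the median of all ratios by 0.34. The 2042 higher and 2430 lower probe sets became 967 and 4043 after spike centring. They became 5774 and 4577 for a floor at the 25th percentile, 779 and 1062 for one at the 75th, 14545 and 9777 without a floor, 5394 and 4692 with a 1.5-fold rule and 166 and 492 with a 4-fold rule. Higher calls made up 45.7% of those called as deposited and 19.3% with spike centring. No paired analysis was possible because each genotype has 1 array, and for the same reason no array could be left out. All members were well above the floor, so signal over background did not limit their ratios.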
